A study of Mus musculus with 11 samples.

Results

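The miRNAs described here are those encoded inside the 4 mouse Hox clusters, namely miR-10a, miR-10b, miR-196a, miR-196b and miR-615. They were chosen by name, as every entry of the small RNA tables with 1 of these stems on either arm. The rule found 9 mature miRNAs of 1096 in all. Hox genes encode transcription factors that give cells their position along the body axis, and their clusters also carry miRNA genes that are conserved between animals. A miRNA is cut from a hairpin whose 5′ and 3′ strands are its 5p and 3p arms, and bases 2 to 8 of the loaded arm, the seed, select the mRNAs that it represses. The miR-10 and miR-196 families are known to repress Hox mRNAs themselves.

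Levels came from spermatogonial progenitor cells (SPCs) of C57BL/6 mice at postnatal day 6 by the labels, which are germ cells kept in culture on mitotically inactivated STO fibroblast feeder cells. The control SPCs (genotype Mov10 Vector) carried the empty lentiviral shRNA vector, shVector. In the Mov10 knockdown SPCs the vector expressed an shRNA against Mov10, the gene of an RNA helicase. The genotype label of the small RNA sample reads Mov10 knockdown, and shMov10-832 is the shRNA that the paper names for its RNA-seq libraries. The growth protocol labelled for the RNA-seq cultures of the same cells names B6;129S-Gt(Rosa)26Sor/J mice. Each group is 1 library, and whether it pools several cultures is not stated, so that no value has a replicate error, and the comparison asks how miRNA levels differed after Mov10 knockdown. In the control library 9628835 reads were counted on miRNAs, and 2794593 in the knockdown library. Mov10 mRNA is not among these miRNAs, and its depletion was not examined. Where 2 values stand together, the control comes first. The deposited TPM is scaled to 1000000 reads of a library total, and 3 reads correspond to 0.285 TPM for the control and 0.939 TPM for the knockdown.

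The mature sequences show how the members are related, with the seed in capitals. They are RefSeq sequences on GRCm38.p6, which held all 9 members.
miR-10a-5p: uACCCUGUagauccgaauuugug
miR-10b-5p: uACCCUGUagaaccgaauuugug
miR-100-5p: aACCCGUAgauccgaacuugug
miR-196a-5p: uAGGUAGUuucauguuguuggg
miR-196b-5p: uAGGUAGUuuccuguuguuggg
miR-10a-3p: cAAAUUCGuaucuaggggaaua
miR-10b-3p: cAGAUUCGauucuaggggaaua
miR-615-3p: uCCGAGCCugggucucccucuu

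miR-10a-5p and miR-10b-5p share their seed and differ at 1 of 23 bases, U12A, counted from the 5′ end. miR-196a-5p and miR-196b-5p also share a seed and differ at 1 of 22 bases, A12C. No other miRNA of the tables with a RefSeq sequence has either seed. Since the base at position 12 lies in the middle, every read of at least 15 bases from these arms covers it, and mapping without mismatch separates the paralogs. The 3p arms of miR-10a and miR-10b differ at 3 bases, A3G, U9A and A10U, the first of which lies in the seed. miR-100, shown because it is the closest relative of miR-10 outside the Hox clusters together with miR-99a and miR-99b, has another seed but holds a run of 11 bases in common with miR-10a-5p.

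Each hairpin lies close to Hox genes, and all but that of miR-196b are on the plus strand. The hairpin of miR-10a lies at chr11:96317165-96317274 (GRCm38), outside other genes and 1495 bp before the coding sequence of Hoxb4. That of miR-10b lies at chr2:74726070-74726137, in introns of Hoxd4 and Hoxd3 and 1141 bp before the coding sequence of Hoxd4. Mature miR-196a-5p is cut from 2 hairpins and its reads cannot be assigned to either. Mir196a-1 lies at chr11:96265164-96265265, 6276 bp before Hoxb9 and outside other genes. Mir196a-2 lies at chr15:102973350-102973434, between Hoxc10 and Hoxc9 and in an intron of a long Hoxc5 transcript. The hairpin of miR-196b lies on the minus strand at chr6:52230081-52230165, between Hoxa10 and Hoxa9. It lies in an intron of 1 Hoxa9 transcript and overlaps exons of others. Mir615, at chr15:103014910-103015001, lies in an intron of Hoxc5. The hairpins of the miR-10 genes thus precede paralog 4 of their clusters, and those of the miR-196 genes precede paralog 9.

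**Figure D1:**
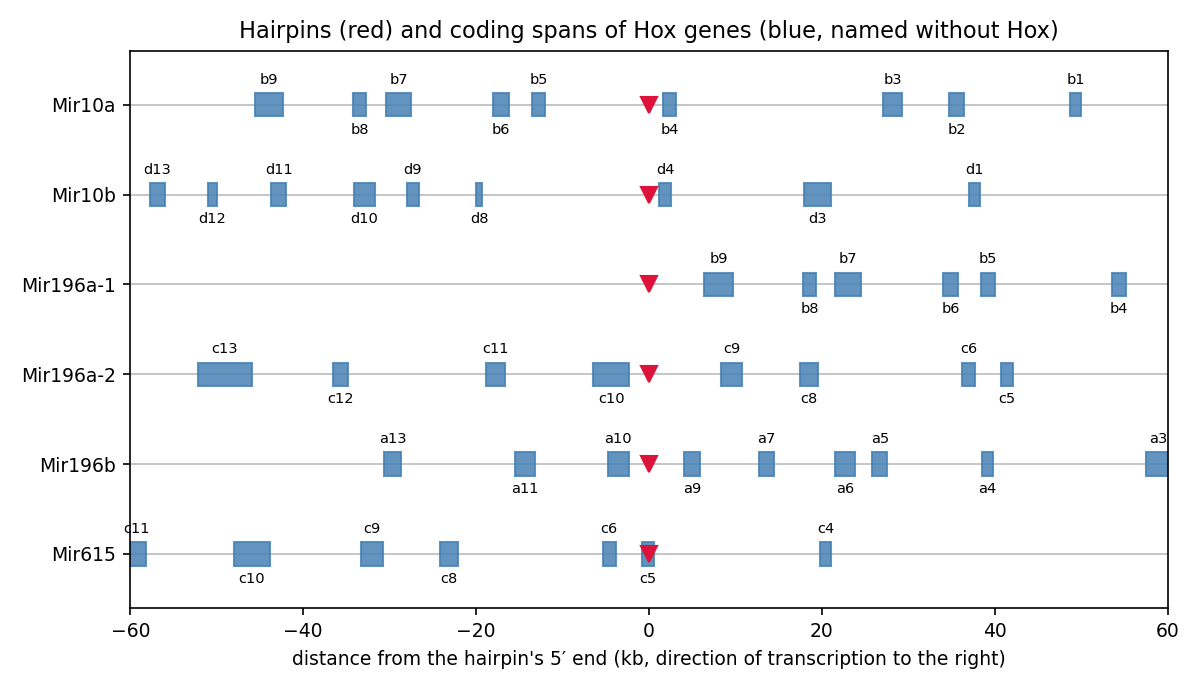
Position of the 6 hairpins (red triangles) relative to the coding spans of Hox genes (blue boxes, named without the prefix Hox) in GENCODE vM21, with the distance from the 5′ end of each hairpin in kb and transcription to the right. Mir10a and Mir10b sit 1495 and 1141 bp before Hoxb4 and Hoxd4, and the 3 miR-196 hairpins sit before Hoxb9, Hoxc9 and Hoxa9.

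A known target of miR-196 illustrates the pairing of the seed. Among the 3′-UTRs of 21028 protein-coding genes in GENCODE vM21, searched on the mRNA strand for the reverse complement of miR-196a-5p with at most 1 base outside Watson-Crick pairing, only Hoxb8 held a match (0.00476% of genes). This site of 22 bases lies at chr11:96284888-96284909 on the plus strand, 19622 bp downstream of Mir196a-1, and is shown with the bases opposite the seed in capitals.
Hoxb8 site: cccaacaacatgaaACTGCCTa
The base opposite position 5 of the miRNA forms a G:U pair, and the rest are Watson-Crick pairs. Under the same limit miR-196b-5p, miR-10a-5p and miR-10b-5p had no match in any 3′-UTR. The level of Hoxb8 mRNA was not analysed here.

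The 5p arms of miR-10 were among the most abundant miRNAs of both libraries. miR-10b-5p had 455267 reads in the control (43283 TPM, rank 6 of 1096) against 189162 in the knockdown (59217 TPM, rank 4). miR-10a-5p had 310289 reads in the control (29500 TPM, rank 7) against 69218 in the knockdown (21669 TPM, rank 8). Both 5p arms together took 7.95% of all control miRNA reads and 9.25% of those in the knockdown, and 99.9% and 99.8% of the reads of all 9 members.

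The miR-196 and miR-615 arms were far less abundant. miR-196a-5p had 316 reads in the control (30.0 TPM) against 238 in the knockdown (74.5 TPM). Its paralog miR-196b-5p was near the detection limit, with 8 reads (0.761 TPM) and 1 read (0.313 TPM). miR-615-3p, the main arm of the Hoxc5 intron, had 321 and 94 reads (30.5 and 29.4 TPM). In the control, the 95% Poisson intervals of miR-615-3p (27.3 to 34.0 TPM), miR-196a-5p (26.8 to 33.5 TPM) and miR-10a-3p (24.8 to 31.2 TPM) overlapped, so that these 3 could not be ordered. In the knockdown, miR-196a-5p (65.3 to 84.6 TPM) stood above miR-615-3p (23.8 to 36.0 TPM) and miR-10a-3p (19.6 to 30.8 TPM), which overlapped. The remaining arms were below 7 TPM, with 43 and 22 reads for miR-10b-3p, 23 and 5 for miR-615-5p, and 16 and 5 for miR-196a-1-3p. All of these values compare arms of 22 or 23 bases and carry no length correction.

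**Figure D2:**
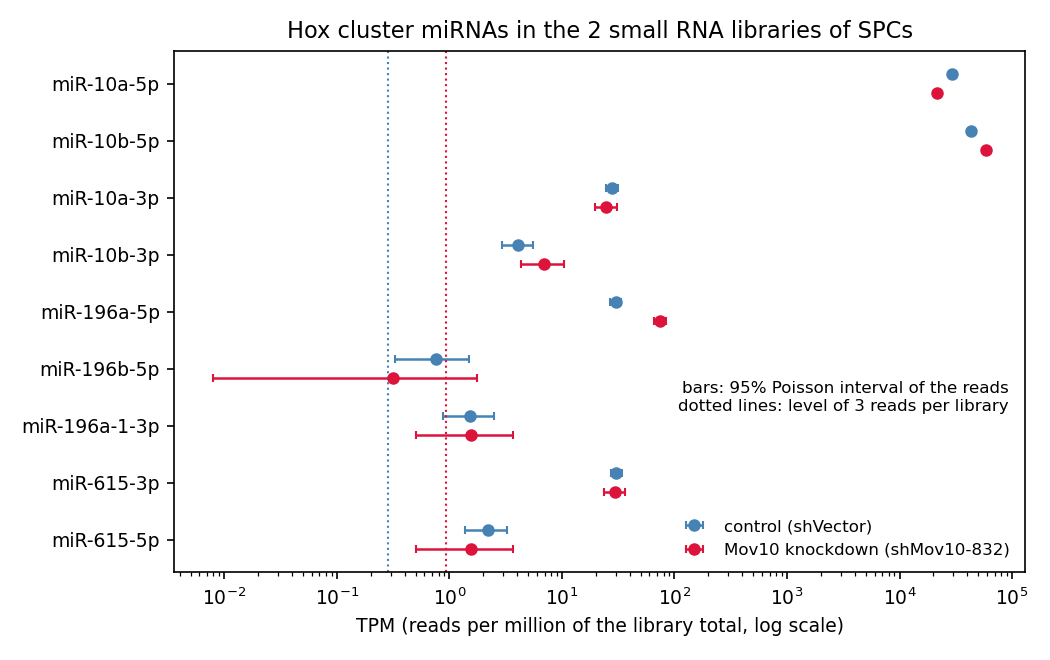
TPM (log axis) of the 9 Hox cluster miRNAs in the control library (blue) and the Mov10 knockdown library (red), with 95% Poisson intervals of the reads and dotted lines at the level of 3 reads. The miR-10 5p arms lie at or above 21669 TPM in both libraries, and miR-196b-5p lies around the detection limits, at 0.761 and 0.313 TPM.

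The cultures held more than 1 cell type, and in such bulk samples fewer cells of a type cannot be told apart from less RNA per cell. All 10 miRNAs of a fibroblast list, the hairpin arms of miR-143, miR-145a, miR-199 and miR-214, which mark mesenchymal cells such as the STO feeder, had reads in both libraries. Their summed TPM was 27675 in the control against 32318 in the knockdown, a log2 ratio of 0.22, and single members ran from -0.42 to 0.93. By the exact binomial test 6 of the 10 were higher and 1 was lower in the knockdown, against 10.7% and 21.4% of all 1096 miRNAs. These 1096 include miRNAs not above 1.5 TPM in either library, whereas all 10 were above it in the higher library. Past 1.5-fold, 1 of the 10 was raised and 0 reduced. Among the 607 miRNAs above 1.5 TPM in the higher library, 15.8% were raised and 41.5% reduced. The highest of the 10, miR-143-3p, had 18362 and 20113 TPM. The list of pluripotent and germ-line stem cells held 12 arms of a miRNA cluster, those of miR-290a, miR-291a, miR-292a, miR-293, miR-294 and miR-295. All 12 had reads in both libraries, with a summed TPM of 2106 and 1299, a log2 ratio of -0.70. By the exact binomial test 9 of the 12 were lower in the knockdown, against 21.4% of all 1096 miRNAs. Past 1.5-fold, 8 of the 12 were reduced and 0 raised, against 41.5% and 15.8% of those 607. The highest of the 12 was miR-292a-5p (753 and 476 TPM). Of the arms of this cluster outside the list, miR-291b-3p and miR-291b-5p had log2 fold changes of -1.05 and -1.59. miR-292b-3p and miR-292b-5p had 0.07 each, and miR-290b-5p had 8 and 1 reads. The miRNAs of both lists were thus present, and sums over unlike lists do not give the share of each cell type. Of 7 blood miRNAs, 6 were in the tables with a summed TPM of 176 and 35.1, led by miR-142a-5p (158 and 28.8 TPM). The gonadal miR-202 was not analysed here. The part of these cell types in the levels of miR-10 and miR-196 was not tested.

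The paralogs miR-10a-5p and miR-10b-5p changed in opposite directions after Mov10 knockdown with the deposited TPM. miR-10a-5p fell by 0.45 on the log2 scale (95% interval -0.46 to -0.43), to 0.735 times its control level. miR-10b-5p rose by 0.45 (0.44 to 0.46), to 1.37 times its control level, a rise that turned to -1.27 when both libraries were divided by the control total. That division leaves the smaller knockdown total uncorrected and shifts the log2 ratio of every miRNA by -1.72. It therefore cannot tell sequencing depth from a loss shared by all miRNAs. For both paralogs, the adjusted p of the exact binomial test of reads with the deposited TPM was below 1e-300. With 1 library a group the test speaks of these libraries alone, and intervals and p-values hold only the error of counting. Log2 fold changes compare TPM + 0.1 in the knockdown with TPM + 0.1 in the control. The median of the 607 miRNAs above 1.5 TPM in the higher library was -0.37, so that miR-10a-5p changed about as much as the median miRNA. Among the 75 miRNAs above 1000 TPM in the control, a minimum set after seeing the data, the quartiles were -0.64, -0.25 and 0.46. Of these 75, 28 had a log2 fold change at or below that of miR-10a-5p and 20 had one at or above that of miR-10b-5p.

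The balance between the paralogs needs no library total, since it is a ratio of reads within each library. The control had 0.682 reads of miR-10a-5p for each read of miR-10b-5p, and the knockdown had 0.366. miR-10a thus made up 40.5% of the miR-10 5p reads in the control (95% Wilson interval 40.4 to 40.6%) against 26.8% in the knockdown (26.6 to 27.0%). The ratio changed by -0.90 on the log2 scale (-0.91 to -0.88), that is to 0.537 times its control value, with an adjusted p below 1e-300 (Fisher's exact test, 11 ratio tests). The 3p arms, whose reads are separate from those of the 5p arms, were compared in the same way. The ratio of miR-10a-3p to miR-10b-3p was 6.81 against 3.59, a log2 change of -0.92 (-1.79 to -0.02). This comparison was chosen after the values were seen and did not pass the threshold (adjusted p = 0.068, Fisher's exact test).

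The level of the shared miR-10 seed is the sum of both 5p arms. With the deposited TPM, the summed level of miR-10a-5p and miR-10b-5p was 72783 and 80886 TPM, a log2 ratio of 0.15. The ratio of miR-10 to the summed 5p reads of miR-99a, miR-99b and miR-100 was 6.54 and 6.28, a log2 change of -0.06 (-0.08 to -0.04, adjusted p = 7.9e-11, Fisher's exact test). Within that group miR-99b-5p (10109 and 11497 TPM) and miR-100-5p (634 and 985 TPM) had log2 fold changes of 0.19 and 0.63 with an adjusted p below 0.05 (exact binomial test). miR-99a-5p (379 and 395 TPM) had 0.06 (adjusted p = 0.44, exact binomial test).

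miR-196a-5p had the largest rise of the 9 members with the deposited TPM. It rose to 2.48 times its control level, a log2 fold change of 1.31 (1.06 to 1.56, adjusted p = 1.4e-23, exact binomial test), which turned to -0.41 when both libraries were divided by the control total, because it had fewer reads in the knockdown library, 0.753 times those of the control. Of the 288 miRNAs above 20 TPM in both libraries, a minimum not planned beforehand, 11 including miR-196a-5p rose as much or more. Relative to miR-196, miR-10 lost ground without reference to a total. The ratio of miR-10 to miR-196 5p reads was 2363 against 1081, a log2 change of -1.13 (-1.37 to -0.89, adjusted p = 2.1e-18, Fisher's exact test). The ratio of miR-196a-5p to miR-196b-5p was 39.5 and 238, and with 8 and 1 reads of miR-196b-5p its log2 change of 2.59 had an interval of -0.33 to 8.07 (adjusted p = 0.14, Fisher's exact test). The read ratio of miR-196b-5p alone, knockdown over control, was 0.125. The interval of its log2 change in TPM ran from -6.75 to 1.62, so that neither a decrease nor a rise could be excluded. miR-196a-1-3p, the only 3p arm of miR-196 analysed here, had 1.52 and 1.57 TPM and a log2 fold change of 0.04 (-1.76 to 1.56).

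miR-615-3p had nearly equal levels in both libraries with the deposited TPM, a log2 fold change of -0.05 (-0.40 to 0.28, adjusted p = 1, exact binomial test). When both libraries were divided by the control total, which leaves the smaller knockdown total uncorrected, it was -1.76. miR-615-5p had 2.19 and 1.57 TPM and a log2 fold change of -0.46 (-2.23 to 0.94). The interval of the 5p arm includes a decrease to below 0.5 of its control level and also a rise, so that neither could be excluded.

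**Figure D3:**
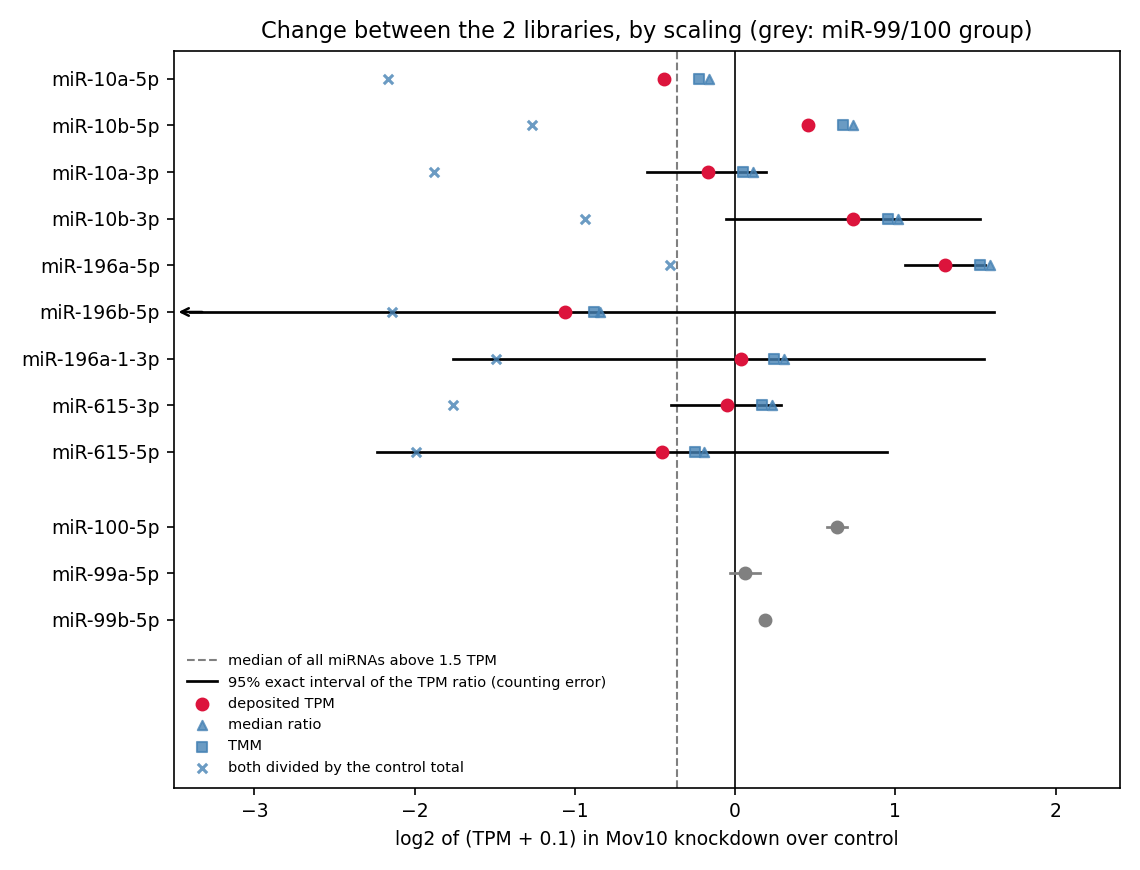
Log2 fold changes of the 9 members between the libraries with the deposited TPM (red), with 95% exact intervals of the TPM ratio and the values under other scalings (blue), beside the miR-99/100 group (grey, deposited TPM) and the median of all miRNAs (dashed). miR-196a-5p at 1.31 and miR-10b-5p at 0.45 lie right of 0 and miR-10a-5p at -0.45 left of it, and dividing both libraries by the control total moves all 9 members below 0.

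Counted by the study's thresholds of 1.5-fold and 1.5 TPM, 8 of the 9 members were above the minimum and miR-196b-5p was below it. Of these 8, 0 were reduced, against 41.5% of the 607 miRNAs above the minimum. The raised members were miR-196a-5p and miR-10b-3p, 2 of 8, against 15.8% of all. miR-10b-3p, at 4.09 and 6.89 TPM, did not pass the binomial test (log2 fold change 0.74, adjusted p = 0.15). When both libraries were divided by the control total, 7 of the 8 were reduced and 0 raised, as were 561 and 10 of 581 miRNAs in all. Scaling also moved the split of all calls. By the deposited TPM 252 were reduced and 96 raised of 607 miRNAs. By TMM 198 and 141 of 598 were, and by the median ratio 182 and 157 of 616. By TMM and by the median ratio 0 of 8 members were reduced and 3 raised, miR-10b-5p being the third. By the exact binomial test, 1 of the 9 members was lower in the knockdown, against 21.4% of all 1096 miRNAs, and 2 were higher, against 10.7%. The median log2 fold change of the 8 members was -0.01, beside -0.37 for all miRNAs above the minimum.

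**Figure D4:**
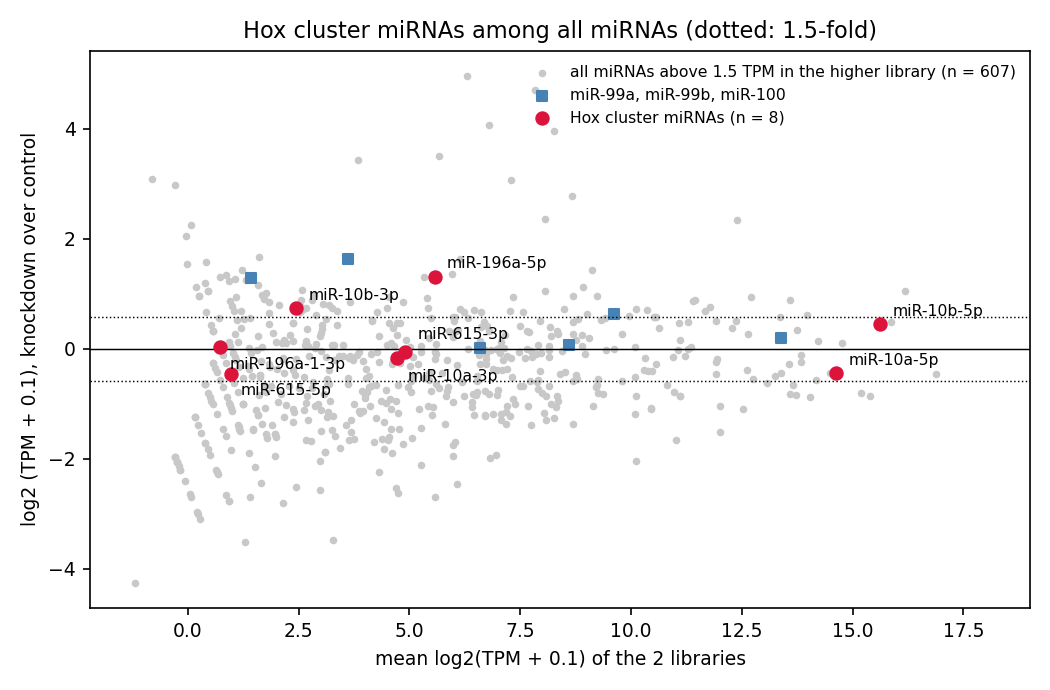
Log2 fold change of the 607 miRNAs above 1.5 TPM against their mean log2(TPM + 0.1) in the 2 libraries, with the 8 Hox cluster miRNAs in red, the miR-99/100 group in blue and dotted lines at 1.5-fold. Only miR-196a-5p and miR-10b-3p of the red points lie above the upper line and none lies below the lower one.

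The miR-10 hairpins differed in how much of the 3p arm was seen. In the control, the hairpin of miR-10a had 1059 reads of its 5p arm for each read of its 3p arm (310289 and 293 reads), and that of miR-10b had 10588 (455267 and 43 reads). The 5p to 3p ratio was thus 10.0 times higher for miR-10b (95% interval 7.26 to 13.8). In the knockdown the ratios were 876 and 8598, a difference of 9.81 times (6.12 to 15.7). The difference passed the threshold in either library, with adjusted p of 6.8e-70 for the control and 2.65e-26 for the knockdown (Fisher's exact test, chosen after the values were seen). Accordingly, miR-10a-3p exceeded miR-10b-3p, 27.9 to 4.09 TPM in the control, although miR-10b-5p exceeded miR-10a-5p.

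The arm ratios of the members did not pass the threshold for a change between the libraries. The log2 change of the 5p to 3p ratio was -0.27 for miR-10a (-0.63 to 0.09, adjusted p = 0.17) and -0.30 for miR-10b (-1.04 to 0.44, adjusted p = 0.46), both by Fisher's exact test. The ratio of miR-196a-5p, which sums the reads of 2 hairpins, to miR-196a-1-3p, which comes from 1 of them, had a log2 change of 1.27 (-0.27 to 3.09, adjusted p = 0.16, Fisher's exact test). That of miR-615-3p to miR-615-5p was 0.43 (-1.05 to 2.22, adjusted p = 0.65, Fisher's exact test). miR-615 was the only member with more reads on its 3p arm, at 14.0 and 18.8 times the reads of its 5p arm.

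**Figure D5:**
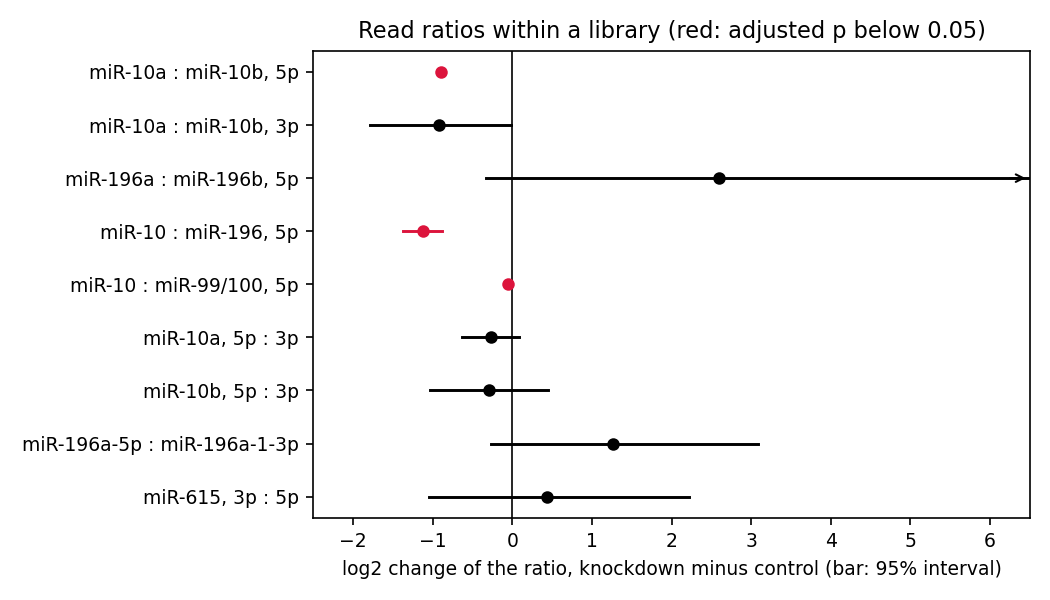
Log2 change of 9 read ratios between the libraries, Mov10 knockdown minus control, with 95% intervals and those with an adjusted p below 0.05 in red. The ratio of miR-10a to miR-10b lies at -0.90 for the 5p arms and -0.92 for the 3p arms, and the 4 ratios of a 5p to a 3p arm or the reverse (the one of miR-196a sums 2 hairpins on its 5p side) have intervals that include 0.

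The miRNAs with the most similar levels in the 2 libraries were found by the distance on log2(TPM + 0.1), over 2 libraries only. Nearest to miR-10a-5p was miR-92a-3p (26727 and 19703 TPM, distance 0.20), followed by miR-30a-5p (0.43) and miR-26a-5p (0.65). Nearest to miR-10b-5p was miR-22-3p (50580 and 70510 TPM, 0.34), followed by miR-21a-5p (0.89) and miR-470-5p (0.99). Nearest to miR-196a-5p was miR-31-3p (25.7 and 63.5 TPM, 0.32), then miR-199b-5p of the fibroblast list (30.3 and 57.9 TPM, 0.36) and miR-598-3p (0.45). miR-196b-5p shared its 8 and 1 reads with 4 other miRNAs at a distance of 0, among them miR-1224-3p, miR-290b-5p and miR-465d-5p.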

How the data were processed

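The 2 small RNA libraries of SPCs were analysed, and the RNA-seq and CLIP-seq samples were not used here. By the paper's methods, the authors filtered rRNA reads, trimmed adaptors with Fastx and mapped small RNAs of 15 to 50 nt to miRBase without mismatch with CLC genomics workbench. The paper speaks of triplicate samples in 2 libraries and does not say whether they were pooled. For each mature miRNA the authors deposited raw read counts. Their deposited TPM values are these counts scaled to 1000000 reads of a library total (10518277 for the control, 3194363 for the knockdown) without length correction. A loss shared by all RNAs of a library does not show in TPM.

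Members and lists were chosen with earlier results of these data known. Named were all members, the miR-99/100 group, the 3 nearest miRNAs of each miR-10 and miR-196 5p arm, and the highest miRNA of each marker list. Arms of miR-290b, miR-291b and miR-292b were also named, as they lie in the cluster of the stem cell list but outside that list. Reads were compared by two-sided exact binomial tests with Benjamini-Hochberg adjustment over 1096 miRNAs. Ratios were compared by Fisher's exact test adjusted over 11 tests, 3 of them added after seeing the data. The 3 arm ratios of the miR-99/100 group were further tests added after seeing the data, adjusted on their own. Intervals of ratios were exact below 5000 reads in all and log-normal above. Sequences and hairpin positions came from RefSeq on GRCm38.p6, except the position of Mir615, which came from GENCODE vM21. The tests were run on simulated reads drawn with counting error alone, which cannot check the variation between cultures. Python 3.11.15, scipy 1.17.1, pandas 2.3.3, numpy 2.4.6, matplotlib 3.10.9, R 4.3.3 and edgeR 4.0.16 (TMM factors 1.05 and 0.948, as an alternative scaling) were used.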

Additional observations from a re-analysis of the deposited data

How the results depend on the processing

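Each group has 1 library, so no replicate could be left out. No paired analysis was possible because only 1 small RNA library stands for each condition. Relative to the deposited TPM, scaling by the median ratio shifts the log2 ratio of TPM by 0.28, TMM by 0.22 and division of both libraries by the control total by -1.72, and with the 0.1 TPM added the lowest members shift less. Division by the control total keeps the difference in library totals in every value. With the control total for both, 7 members were reduced and 0 raised, and the median of the members was -1.63. Under it 4 members turned, miR-10b-5p to -1.27, miR-196a-5p to -0.41, miR-10b-3p to -0.93 and miR-196a-1-3p to -1.49. miR-10a-5p stayed below 0 under all alternatives, from -2.16 to -0.16. miR-10a-3p turned to 0.11 with the median ratio and 0.046 with TMM, and miR-615-3p to 0.013 with scaling to 1000000 miRNA reads, 0.23 with the median ratio and 0.17 with TMM, none past the threshold. miR-10b-3p passed the threshold at 1.02 with the median ratio and 0.95 with TMM (adjusted p = 0.027 and 0.043, exact binomial test). Without a minimum TPM, 561 of all 1096 miRNAs were reduced and 186 raised. Above 100 TPM in the control 74 and 25 of 208 were, and at 2-fold 161 and 40 of 607. Without a minimum, miR-196b-5p made 1 reduced member of 9. With a minimum of 100 TPM in the control 0 of 2 members were raised, and with a 2-fold threshold 1 of 8 was. The ratio of miR-10a to miR-10b changed by -0.92 with 3p reads alone and no longer passed the threshold. The cause was not tested, but the 3p arms have few reads. Low reads limit miR-196b-5p, miR-196a-1-3p and miR-615-5p.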

Other observations

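Shifts in the ratio of miRNAs that share a seed also occurred outside miR-10. Among miRNAs with a RefSeq sequence in the table used (908 of 1096), 104 pairs shared bases 2 to 8 with both members above 100 TPM in the control, over 29 seeds. The ratio within a pair changed by a median of 0.38 on the log2 scale in either direction, and 16 of the 104 pairs, miR-10a-5p and miR-10b-5p included, changed by at least the 0.90 seen for miR-10. These pairs overlap where a seed has more than 2 miRNAs, and the values carry no replicate error.

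In the related miR-99/100 group, the 5p to 3p ratio of miR-99a was 55.3 against 18.6, a log2 change of -1.58 (95% interval -2.06 to -1.09, adjusted p = 2.5e-09 over 3 tests, Fisher's exact test), since miR-99a-3p had 72 and 68 reads. For miR-99b (105 and 118) and miR-100 (392 and 242) the change of the ratio did not pass the threshold (adjusted p = 0.12 and 0.24, Fisher's exact test). These ratios were computed after the data were seen.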
